A study of Mus musculus with 30 samples.

Results

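The transcripts described here are those of 47 mouse genes of Fanconi anaemia and DNA interstrand crosslink repair, chosen by name and matched by symbol to the Ensembl gene of each called m6A bin. All 47 symbols matched 1 Ensembl gene each, and 44 of them had a called bin in at least 1 of 15 peak lists, out of 13765 genes with a bin in any list. Fancc, Fancf and Cenpx had none. The 44 genes carried 982 of the 204208 bins over all lists. N6-methyladenosine (m6A) is a methylated form of adenosine found in messenger RNA, and a bin is a window of 100 nt in which the authors called immunoprecipitated RNA as enriched.

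The lists came from mouse embryonic stem cells of the C57BL/6 strain, grown on gelatin in serum with leukemia inhibitory factor, in 5 lines with 3 lists each. WT was wild type, KO lacked Mettl14, and the other lines were the Mettl14 knockout with METTL14 put back. KO+WT carried the wild-type protein, and KO+5RK and KO+13RK carried forms deficient in arginine methylation, whose names are those of the labels. The knockout genotype was thus shared by KO and all rescue lines, which set the forms of METTL14 against each other in Mettl14 knockout cells. The labels do not say whether a line was 1 clone, how METTL14 was put back, or whether replicates came from separate cultures, so a p-value measures only the spread between these lists.

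METTL14 helps METTL3, the catalytic subunit, to bind RNA in the complex that writes most m6A on messenger RNA, mainly at adenosines in GGAC-type sequences. In mammalian cells the mark is known for its frequency in long internal exons and around stop codons, and for its influence on the stability of transcripts. An interstrand crosslink ties both DNA strands together and stops replication forks. FANCM and its partners recognise the stalled fork, the Fanconi core complex and UBE2T attach ubiquitin to FANCD2 and FANCI, nucleases on the SLX4 scaffold unhook the lesion, translesion polymerases copy past it, and homologous recombination repairs the resulting break.

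A pair of start sites is shown first, because there the deposited bins and a known sequence overlap. RefSeq windows of 300 bases around the gene start (build GRCm38.p6) were given for 41 of the 47 genes, and in 3 of them (Fancl, Rmi1 and Ube2t) a called bin overlapped a window. In Fancl, the ubiquitin ligase subunit of the core complex, the bin at chr11:26387036-26387135 on the plus strand covered the RefSeq start at 26387084. Every one of the 12 lists outside KO held it and no KO list did. The letters GGACT, in capitals below, stand once in the 98 bases of that bin inside the window, at 26387039 to 26387043, and their reverse complement AGTCC does not. These letters lie before the RefSeq start, and so outside the transcript annotated from there. GGACT occurred in the same 98 bases of 10.1% of the 32851 windows in the RefSeq table, and AGTCC in 9.05%. In Ube2t, the ubiquitin-conjugating enzyme of the pathway, a bin that began just past the start was called in 2 WT lists and 1 KO+5RK list, and the bin after it was kept in KO. Neither GGACT nor AGTCC stands in the 49 bases of the first bin inside the window, while 5.61% and 4.50% of windows held them there. In the Ube2t sequence the capital marks the first transcribed base. A match of letters is a description and not a methylation site.
Fancl, chr11:26387027-26387056, plus strand: cgtcaggcctgtGGACTtgtgagtgatctt
Ube2t, chr1:134962550-134962579, plus strand: gggtggagtcattccAacggtctccgcggt

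Bins of the crosslink repair transcripts were most frequent in WT and least frequent in KO. The 3 WT lists held 116, 107 and 120 such bins, and the KO lists held 17, 25 and 22. KO+WT lists held 72, 94 and 80, KO+5RK lists 59, 74 and 61, and KO+13RK lists 35, 38 and 62. No KO list reached the lowest list of any other line, whereas KO+13RK overlapped KO+5RK in its highest list. The mean fell from 114 ± 6.66 bins (SD, n = 3) in WT to 21.3 ± 4.04 in KO, which was 18.7% of WT, beside 34.3% for all bins of all genes. KO+WT stood at 71.7% of WT (67.0% for all bins). KO+5RK stood at 78.9% of KO+WT (80.9% for all bins), and KO+13RK at 54.9% of KO+WT (66.5% for all bins).

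The number of crosslink repair genes with a bin followed the same order. It was 34, 33 and 36 in WT, 11, 17 and 14 in KO, and 29, 32 and 30 in KO+WT. It was 26, 29 and 32 in KO+5RK and 20, 22 and 25 in KO+13RK. The mean number over all genes had this order too, so the order was not particular to crosslink repair. For crosslink repair the KO mean was 40.8% of that of WT, beside 55.7% for all genes. The KO+WT mean was 88.3% of it (83.4% for all genes). Set against KO+WT, the KO+5RK mean was 95.6% (90.1% for all genes) and the KO+13RK mean 73.6% (80.6% for all genes). KO was the only line whose share of bins in these genes lay apart from the others, at 0.256% to 0.297% of a list against 0.359% to 0.582% over the other 12 lists. The members were chosen with such counts known, so no test was made of these sums. The part of list length in these counts was examined with equal lists. With each list reduced to its 6328 bins of smallest p the order changed. WT then held 28.0 ± 3.00 bins of these genes, KO 18 ± 1.73, KO+WT 34.0 ± 2.65, KO+5RK 34.0 ± 4.58 and KO+13RK 31.3 ± 2.52. KO stayed lowest at equal length, at 64.3% of WT, while KO+WT was above WT and KO+5RK level with KO+WT.

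**Figure D1:**
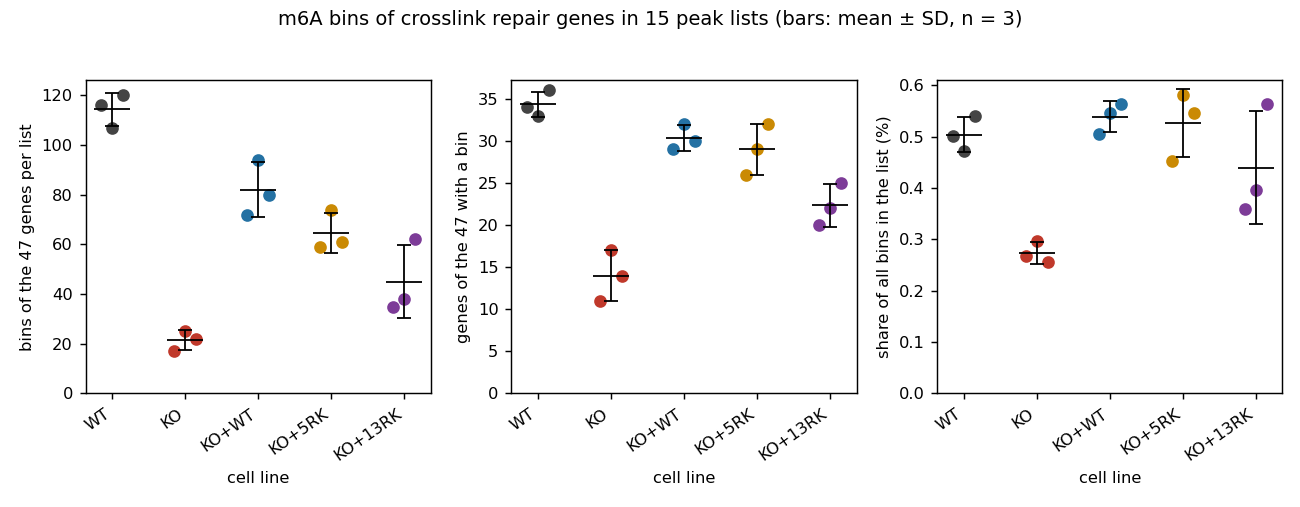
Bins of the 47 crosslink repair genes per peak list (left), number of these genes with a bin (middle) and their share of all bins in the list in percent (right), by cell line. Points are lists, horizontal bars the mean and whiskers the SD of 3 lists. The KO lists, with 17 to 25 bins, lie below every other list in all panels.

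Whole lists ran from 6328 bins (KO) to 23164 bins (WT), and coverage per bin is unknown. A bin is a call in immunoprecipitated RNA, so fewer transcripts, fewer cells expressing a gene and less methylation cannot be told apart here, and the absence of a call does not show the absence of m6A. Mettl14 itself had 1 bin in each of 2 KO+5RK lists and none in any other list, so the lists do not check its knockout. Of 10 embryonic stem cell marker genes, 5 to 9 had a bin in each list, and of 10 genes of differentiated lineages at most 1. Of 10 fibroblast markers, Fn1 (fibronectin) stood out, with 23 to 30 bins in the WT lists and 0 to 3 in the other 12. The other 9 markers together held 2 or 3 bins in the WT lists and 0 to 3 elsewhere. Pdgfrb had a bin in 3 WT and 2 KO+13RK lists, and Col1a1 in 2 WT lists and 1 KO list. Vim had a bin in 2 WT, 1 KO, 1 KO+WT and 2 KO+13RK lists, and Thy1 in 1 KO+WT and 1 KO+13RK list. In each WT list 3 or 4 of the 10 markers had a bin, as had 3 in KO+WT 3 and in KO+13RK 1 and at most 2 in the remaining lists, and Col1a2, Col3a1, Dcn, Lum and Postn had no bin in any list. The part of this difference in the WT values that follow was not tested.

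**Figure D2:**
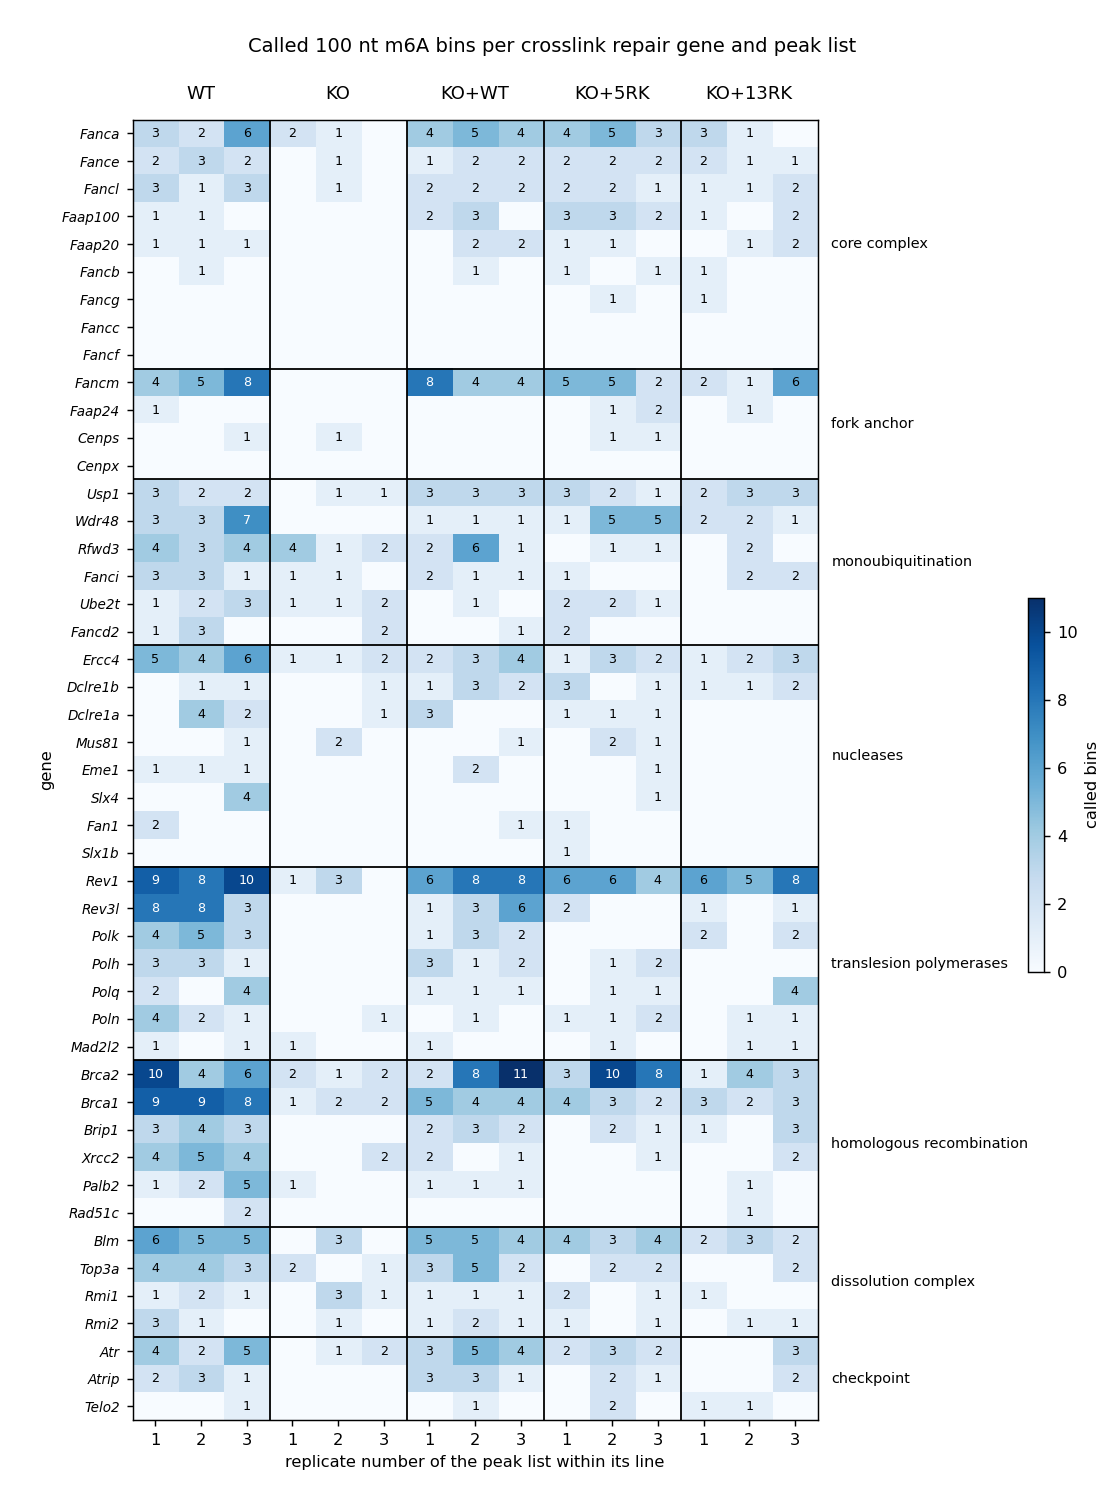
Called bins of 100 nt per gene (rows, grouped by role) and peak list (columns, 3 per line), with the number printed in each cell that is not 0. Rev1, Brca1, Brca2 and Rev3l hold the most bins in WT, and the KO columns are mostly empty.

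Bins per gene were compared over the 5 lines by a permutation test of the F statistic with 100000 resamples and Benjamini-Hochberg adjustment over all 13765 genes. Brca1, Rev1, Polk and Blm passed an adjusted p of 0.05, which is 4 of the 44 genes with a bin, or 9.09%, beside 4.82% of all genes. All 4 were highest in WT. At an unadjusted p under 0.05 there were 18 of 44 (40.9%), beside 21.8% of all genes. When each of the 15 lists was left out in turn, the call of Brca1 held in all 15 cases (adjusted p 0.0143 to 0.0490). The call of Rev1 was lost without WT 1, WT 3, KO 1 or KO 3 (0.0559 to 0.0637). Polk kept its call only without WT 3, KO+WT 1, KO+WT 2 or KO+13RK 2, and without the other 11 its adjusted p was 0.0572 to 0.0912. Blm kept its call only without KO 2, and without the other 14 its adjusted p was 0.0525 to 0.0987. None of the 4 passed at equal list length (adjusted p 0.184 for Rev1, 0.365 for Polk, 0.373 for Blm and 1.0 for Brca1, permutation F test). None passed with enrichment values at or above the median (0.113 to 0.244) or with calls counted as present or absent per gene in place of bins (0.329 to 1.0). With a q under 0.005, Rev1 and Blm passed and Brca1 (adjusted p = 0.129, permutation F test) and Polk (0.0641) did not.

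Translesion polymerases, which insert bases opposite damaged DNA, held 31, 26 and 23 bins in the WT lists and 2, 3 and 1 in the KO lists over 7 genes. Rev1, a deoxycytidyl transferase and the scaffold of the other translesion polymerases, had 9, 8 and 10 bins in WT, 1, 3 and 0 in KO, and 6, 8 and 8 in KO+WT. It had 6, 6 and 4 bins in KO+5RK and 6, 5 and 8 in KO+13RK (adjusted p = 0.0233 over the 5 lines, permutation F test). Every KO list was below every other list, and the rescue lines overlapped each other. Polk, a polymerase of the Y family, had 4, 5 and 3 bins in WT, none in KO, and 1, 3 and 2 in KO+WT (adjusted p = 0.0433, permutation F test). It had none in any KO+5RK list and 2, 0 and 2 in KO+13RK. Rev3l, the catalytic subunit of polymerase zeta, had 8, 8 and 3 bins in WT, none in KO, 1, 3 and 6 in KO+WT, 2, 0 and 0 in KO+5RK, and 1, 0 and 1 in KO+13RK. Polh, the polymerase that copies past ultraviolet damage, had 3, 3 and 1 bins in WT, none in KO, 3, 1 and 2 in KO+WT, 0, 1 and 2 in KO+5RK, and none in KO+13RK. Rev3l and Polh did not pass over the lines (adjusted p = 0.103 and 0.167, permutation F test), and the mutant lists lay below the WT lists for Rev3l, while for Polh the KO+5RK lists overlapped WT. Polq, the polymerase of microhomology-mediated end joining, had 2, 0 and 4 bins in WT, none in KO, 1 in each KO+WT list, 0, 1 and 1 in KO+5RK, and 0, 0 and 4 in KO+13RK. Poln and Mad2l2 had at most 4 bins in a list.

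Homologous recombination genes held 27, 24 and 28 bins in WT and 4, 3 and 6 in KO over 6 genes. Brca1, the ubiquitin ligase that promotes end resection, had 9, 9 and 8 bins in WT and 1, 2 and 2 in KO. It had 5, 4 and 4 in KO+WT, 4, 3 and 2 in KO+5RK, and 3, 2 and 3 in KO+13RK (adjusted p = 0.0185, permutation F test). The WT lists stood above all 12 others, KO+WT above KO and above KO+13RK, and KO+WT overlapped KO+5RK. Brca2, a mediator of strand exchange on resected DNA, had 10, 4 and 6 bins in WT, 2, 1 and 2 in KO, and 2, 8 and 11 in KO+WT. It had 3, 10 and 8 in KO+5RK and 1, 4 and 3 in KO+13RK, and with this spread it did not pass (adjusted p = 0.434, permutation F test). Brip1, a helicase partner of BRCA1, had 3, 4 and 3 bins in WT, none in KO, 2, 3 and 2 in KO+WT, 0, 2 and 1 in KO+5RK, and 1, 0 and 3 in KO+13RK. Palb2, the bridge between BRCA1 and BRCA2, had 1, 2 and 5 bins in WT, 1 in each KO+WT list, 1 in KO 1, 1 in KO+13RK 2, and none in any KO+5RK list. Xrcc2, a recombination factor, had 4, 5 and 4 bins in WT and at most 2 in any other list, and Rad51c had 2 in WT 3 and 1 in KO+13RK 2.

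The dissolution complex, which unwinds double Holliday junctions, held 14, 12 and 9 bins in WT and 2, 7 and 2 in KO over 4 genes. Blm, its helicase, had 6, 5 and 5 bins in WT, 0, 3 and 0 in KO, 5, 5 and 4 in KO+WT, 4, 3 and 4 in KO+5RK, and 2, 3 and 2 in KO+13RK (adjusted p = 0.0450, permutation F test). The KO+WT lists lay above the KO+13RK lists and overlapped the WT and KO+5RK lists. Top3a, Rmi1 and Rmi2 had 0 to 5 bins in a list.

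In the core complex, the fork anchor and the ubiquitin genes, mean bins in KO+5RK were not below those in KO+WT, unlike in the whole lists. The core complex (9 genes) held 10, 9 and 12 bins in WT, 2, 3 and 0 in KO, 9, 15 and 10 in KO+WT, 13, 14 and 9 in KO+5RK, and 9, 4 and 7 in KO+13RK. KO+WT and KO+5RK overlapped. Fance, the subunit that binds FANCD2, had 2, 3 and 2 bins in WT, 0, 1 and 0 in KO, 1, 2 and 2 in KO+WT, 2 in each KO+5RK list, and 2, 1 and 1 in KO+13RK. Fancl had 3, 1 and 3 bins in WT, 0, 1 and 0 in KO, 2 in each KO+WT list, 2, 2 and 1 in KO+5RK, and 1, 1 and 2 in KO+13RK. Faap20, a small subunit that binds ubiquitin, had 1 bin in each WT list, none in KO, 0, 2 and 2 in KO+WT, 1, 1 and 0 in KO+5RK, and 0, 1 and 2 in KO+13RK. Fanca had 0 to 6 bins per list, and Fancb, Fancg and Faap100 had at most 3. The fork anchor (4 genes) held 5, 5 and 9 bins in WT, 0, 1 and 0 in KO, 8, 4 and 4 in KO+WT, 5, 7 and 5 in KO+5RK, and 2, 2 and 6 in KO+13RK. Fancm, the DNA translocase of the fork anchor, had 4, 5 and 8 bins in WT, none in KO, 8, 4 and 4 in KO+WT, 5, 5 and 2 in KO+5RK, and 2, 1 and 6 in KO+13RK. Its KO lists were below all 12 others (adjusted p = 0.215 over the lines, permutation F test). Faap24 and Cenps had at most 2 bins in a list.

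The ubiquitin genes, those of the FANCD2 and FANCI cycle together with Rfwd3, held 6, 4 and 7 bins per KO list over 6 genes, beside 15, 16 and 17 in WT. This was the highest mean in KO of any role, and 4, 1 and 2 of these KO bins were those of Rfwd3. Usp1, the protease that removes ubiquitin from FANCD2, had 3, 2 and 2 bins in WT, 0, 1 and 1 in KO, 3 in each KO+WT list, 3, 2 and 1 in KO+5RK, and 2, 3 and 3 in KO+13RK. Wdr48, the activator of USP1, had 3, 3 and 7 bins in WT, none in KO, 1 in each KO+WT list, 1, 5 and 5 in KO+5RK, and 2, 2 and 1 in KO+13RK. The KO+WT lists of Wdr48 were all below the WT lists, while the KO+5RK lists overlapped both. Rfwd3, a ubiquitin ligase acting on RPA, had 4, 3 and 4 bins in WT, 4, 1 and 2 in KO, 2, 6 and 1 in KO+WT, 0, 1 and 1 in KO+5RK, and 0, 2 and 0 in KO+13RK. Ube2t had 1, 2 and 3 bins in WT, 1, 1 and 2 in KO, 0, 1 and 0 in KO+WT, 2, 2 and 1 in KO+5RK, and none in KO+13RK. Fanci had 0 to 3 bins in a list and Fancd2 as many.

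Nucleases held 8, 10 and 15 bins in WT and 1, 3 and 4 in KO over 8 genes. Ercc4, the XPF nuclease that makes the unhooking cut, had 5, 4 and 6 bins in WT, 1, 1 and 2 in KO, 2, 3 and 4 in KO+WT, 1, 3 and 2 in KO+5RK, and 1, 2 and 3 in KO+13RK (adjusted p = 0.0983, permutation F test). Eme1, the partner of MUS81, had 1 bin in each WT list, 2 in KO+WT 2, 1 in KO+5RK 3, and none elsewhere. Dclre1a, a nuclease of the SNM1 family, had 0, 4 and 2 bins in WT, 0, 0 and 1 in KO, 3, 0 and 0 in KO+WT, 1 in each KO+5RK list, and none in KO+13RK. Slx4, the scaffold, had 4 bins in WT 3 and 1 in KO+5RK 3, and Dclre1b, Mus81, Fan1 and Slx1b had at most 3. Among the checkpoint genes, which signal stalled forks, Atr had 0 to 5 bins in a list and Telo2 0 to 2. Atrip, the partner of ATR, had 2, 3 and 1 bins in WT, none in KO, 3, 3 and 1 in KO+WT, 0, 2 and 1 in KO+5RK, and 0, 0 and 2 in KO+13RK. Of the 298 distinct bins of these genes, 7 overlapped a bin of another gene on the same strand, 3 of Atrip with ENSMUSG00000105383 and 4 of Poln with Haus3, and those assignments are uncertain.

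**Figure D3:**
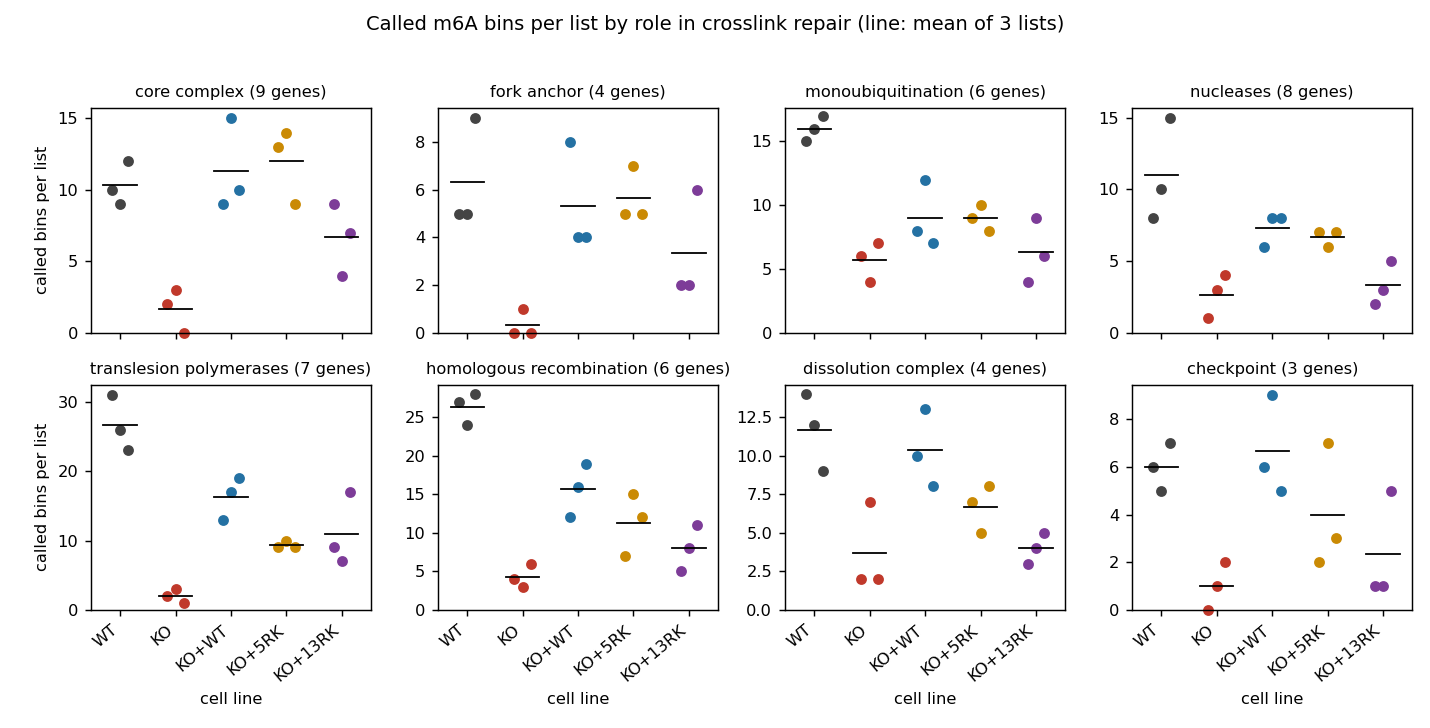
Called bins per list summed over the genes of each role, by cell line. Points are lists and horizontal lines the mean of 3 lists. The translesion polymerases held 23 to 31 bins in WT and 1 to 3 in KO, and the core complex held 9 to 15 in KO+WT and 9 to 14 in KO+5RK.

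The KO lists were set against the 12 lists of the other lines by an exact permutation test (two-sided) of bins per gene. No gene passed the adjusted threshold, 0 of 44 and 0 of all genes (0%), and the smallest adjusted p over all genes was 0.0790. That value belonged to the smallest p the test allows, so the 0 does not show that no gene differed. At an unadjusted p under 0.05, 7 of 44 genes (15.9%) had fewer bins in KO, beside 9.42% of all genes, and none had more, beside 1.98%. They were Blm, Brip1, Fance, Fancl, Fancm, Rev1 and Usp1. Rev1 had 1.33 bins per KO list and the other 12 lists 7.0 on average, which gave the smallest p the test allows (exact p = 0.00220). A 3 against 3 comparison of lists cannot give an exact p below 0.1, so pairs of lines are described by whether their lists overlap.

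WT and KO lists did not overlap in bins per gene for 18 of 42 genes (42.9%), all higher in WT, beside 28.7% of all genes. None was higher in KO, beside 1.24%. KO+WT and KO lists did not overlap for 15 of 39 genes (38.5%), all higher in KO+WT, beside 16.3% of all genes, and none was higher in KO, beside 1.53%. These pairs share the KO lists. A gene was taken as lost between a pair of lines when every list of the one and no list of the other held a bin of it, and as gained in the reverse case. From WT to KO, 9 genes were lost, namely Atrip, Brip1, Eme1, Faap20, Fancm, Polh, Polk, Rev3l and Wdr48, or 33.3% of the 27 genes called in all WT lists, beside 31.5% of all genes so called. From KO+WT to KO, 8 were lost, Polq among them and Eme1 and Faap20 not, or 32% of 25, beside 25.7%. Of all 11155 genes with a bin in KO+WT or KO, 9.23% were lost. No gene was gained in KO in either pair, beside 0.803% of all genes against WT and 0.977% against KO+WT. With lists cut to one length, the losses from WT to KO numbered 4 and the gains 2, beside 584 and 504 over all genes. The shares were not computed at that length.

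Single regions were followed next. Bins of a gene that overlapped over the 15 lists were taken as 1 region, giving 298 regions in the 44 genes. Calls of the 3 KO lists were compared with those of the 12 others by Fisher's exact test (two-sided), adjusted over all 24770 regions called in at least 3 lists. Of 125 such regions in crosslink repair genes, 10 (8%) were called less often in KO, beside 4.76% of all regions. Each was called in all 12 other lists and in no KO list, with an adjusted p of 0.0378, the smallest the test gave for any region. At equal list length 1 region passed with fewer calls in KO and 2 passed with more. With enrichment values at or above the median 0 passed in either direction, and with a q under 0.005, 3 passed with fewer calls and 0 with more. The share of all regions passing was not computed under these settings, so these counts cannot be set against it. With 2 KO lists in place of 3 the test cannot reach the threshold, so leaving out KO 1, KO 2 or KO 3 does not test these calls. The 10 regions belonged to Fancl, Fance, Brca1, Rev1, Usp1, Blm and Fancm.

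Rev1 carried 4 of the 10, in a run of 7 adjoining regions that every WT list and no KO list held. The run covered 700 nt, chr1:38087987-38088686 on the minus strand, in a gene of 77136 nt. The 4 regions called in every list outside KO were chr1:38087987-38088086, chr1:38088287-38088386, chr1:38088387-38088486 and chr1:38088487-38088586. The third of these had the highest mean rank in its lists, at the 75.3 percentile of enrichment values. By the rule that set the run, the 4 bins that KO lists held in Rev1 lay outside it. Over the run, KO+WT lists made 20 of 21 possible calls, KO+5RK lists 15 and KO+13RK lists 18.

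Brca1 held both a region called less often in KO and the only region of these genes called more often. At chr11:101524965-101525064 (minus strand) every other list and no KO list had a call. At chr11:101525265-101525364, 200 nt away, all 3 KO lists and none of the 12 others had a call (adjusted p = 0.0378, Fisher's exact test). This was 1 of 125 regions (0.8%), beside 1.05% of all regions called more often in KO. All 14 regions of Brca1 lay within 2900 nt of a gene of 63195 nt. Its KO bins were those 3, 1 in the region at chr11:101525665-101525764, which 11 of the other lists shared, and 1 in another region.

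Of the rest, Fance had its region at chr17:28315831-28315930 (plus strand), Usp1 at chr4:98934411-98934510 (plus), Blm at chr7:80512934-80513033 (minus) and Fancm at chr12:65106307-65106406 (plus). Each of these adjoined a second region held by every WT list and no KO list. The Usp1 region ranked low in its lists, at the 13.3 percentile on average, while that of Fancl ranked at the 63.7 percentile.

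**Figure D4:**
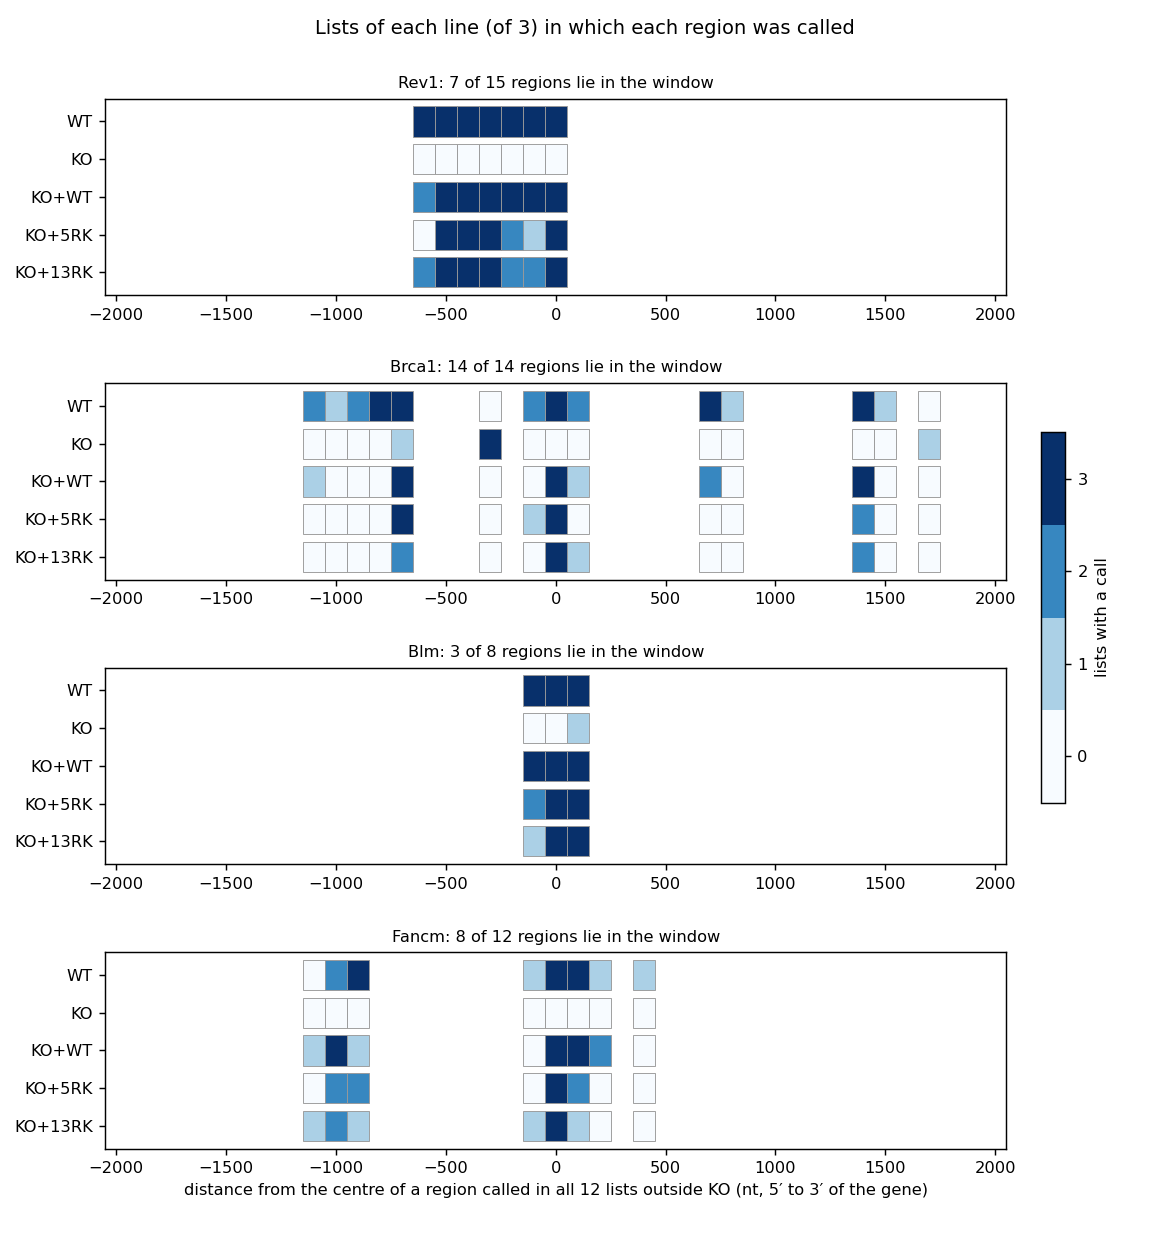
Lists of each line (0 to 3, by colour) in which each 100 nt region was called, along Rev1, Brca1, Blm and Fancm. The horizontal axis is the distance in nt from the centre of a region called in all 12 lists outside KO, in the 5′ to 3′ direction of the gene, and the titles give how many of the gene's regions lie in the window. The KO row is empty over the Rev1 run, as the rule that set the run requires. In Brca1 the KO row has a region called in all 3 lists where the other rows are empty.

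In crosslink repair genes, 54 regions had a call in every WT list. KO lists had no call in 47 of them (87.0%), beside 80.2% of such regions over all genes. In 5 of them, 1 or 2 KO lists had a call. Only 2 (3.70%), beside 9.55% over all genes, were kept in all 3 KO lists. These lay in Ube2t at chr1:134962666-134962765 and in Rfwd3 at chr8:111293945-111294044. The Ube2t region, whose centre was 150.5 nt past the RefSeq start, was called in 1 KO+WT list, all 3 KO+5RK lists and no KO+13RK list. The Rfwd3 region was called in 2, 2 and 1 lists of these lines. The other regions called in all KO lists were the one in Brca1 and chr16:13144385-13144484 in Ercc4, which was called in 1 WT list and no rescue list (adjusted p = 0.0911, Fisher's exact test). No region of these genes was called in all 15 lists. With a q under 0.005, with enrichment values at or above the median, or at equal list length, no region was kept in KO.

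The 47 regions absent from KO lay in 23 genes, and their calls in the rescue lines give the recovery. KO+WT lists called 31, 38 and 36 of them, KO+5RK lists 24, 26 and 21, and KO+13RK lists 19, 19 and 27. The KO+WT lists were above all lists of both mutants, and the mutants overlapped. Mean recovery was 74.5% ± 7.67 (SD, n = 3) in KO+WT. KO+5RK reached 50.4% ± 5.35 and KO+13RK 46.1% ± 9.83. Over the 9042 regions of all other genes chosen in the same way it was 62.3% ± 2.68, 48.9% ± 6.12 and 36.9% ± 3.54. All KO+WT lists called 23 of the 47 (48.9%), beside 40.9% of such regions over all genes. All KO+5RK lists also called 13 of the 23 (56.5% beside 52.9%), and all KO+13RK lists 11 (47.8% beside 39.6%). None of the KO+5RK lists called 3 of the 23 (13.0% beside 5.6%), and none of the KO+13RK lists called 4 (17.4% beside 17.1%). The order of the lines depended on the bins used. With only bins at or above the median enrichment value there were 18 such regions, and recovery was 42.6% in KO+WT, with 44.4% for KO+5RK and 22.2% for KO+13RK. At equal list length there were 10, with 60.0%, 50.0% and 56.7%.

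**Figure D5:**
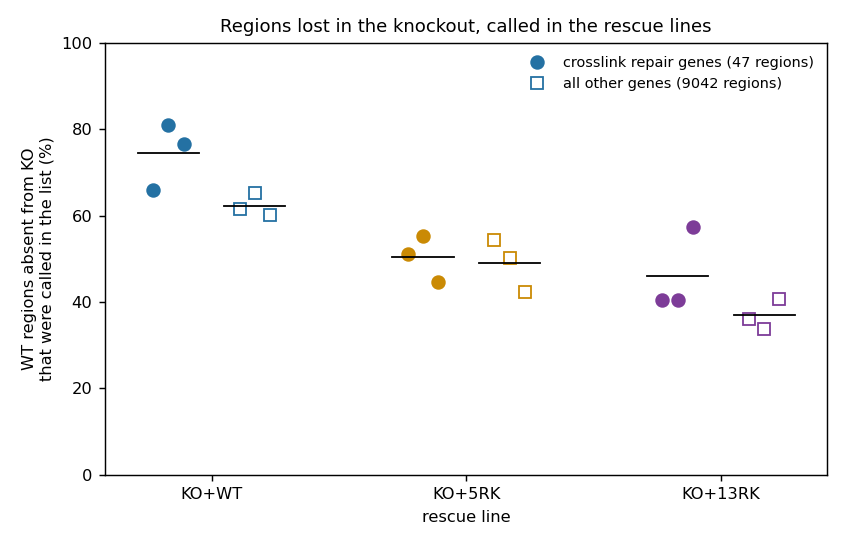
Percent of the regions held by every WT list and no KO list that each rescue list also held, for crosslink repair genes (filled circles) and all other genes (open squares). Horizontal lines are the means of 3 lists. For crosslink repair genes the KO+WT lists lie between 66.0% and 80.9%, above every mutant list.

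Recovery is given by role, where the regions are few and no difference between roles was tested. Core complex regions made 13 of 15 possible calls in KO+WT, with 14 for KO+5RK and 11 for KO+13RK. Translesion polymerase regions made 32 of 36, 16 and 21, of which the Rev1 run gave 20, 15 and 18. Homologous recombination regions made 18 of 27, 10 and 9. Regions of the ubiquitin genes, Rfwd3 included, made 16 of 21, 9 and 11, and those of the dissolution complex 13 of 18, 10 and 5. Fork anchor regions made 7 of 12, 8 and 5, nuclease regions 3 of 6, 1 and 2, and checkpoint regions 3 of 6, 3 and 1. Some regions were called in KO+WT lists and in few or no mutant lists. The region at chr7:79450030-79450129 of Fanci, with its centre 186.5 nt from the gene end, was called in all WT and KO+WT lists and in none of the KO, KO+5RK or KO+13RK lists. Both Rev3l regions were called in 2 KO+WT lists and in no mutant list. The Polk regions were called in 2 and 3 KO+WT lists, in no KO+5RK list, and in 1 and 2 KO+13RK lists. The Brca2 region at chr5:150543231-150543330 was called in all KO+WT and KO+5RK lists and in no KO+13RK list.

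The arginine mutants were tested by setting the 6 lists of WT and KO+WT against the 6 of KO+5RK and KO+13RK. WT was not a rescue line and had the longest lists, 22683 bins on average beside 15206 in KO+WT. KO+5RK lists had 12298 and KO+13RK lists 10105. In this test the form of METTL14 cannot be told apart from rescue or list length. No gene passed the adjusted threshold in the exact permutation test of bins per gene, 0 of 44 and 0% of 13183 genes tested, with a smallest adjusted p of 0.183. That value belonged to the smallest p the test allows (exact p = 0.00216), so the 0 does not show that no gene differed. At an unadjusted p under 0.05, 12 of 44 genes (27.3%) had fewer bins in the mutants, beside 10.4% of all genes, and none had more, beside 0.22%. They were Atr, Blm, Brca1, Brip1, Ercc4, Palb2, Polh, Polk, Rev1, Rev3l, Rfwd3 and Top3a. Brca1 averaged 6.5 bins in the 6 lists with wild-type METTL14 and 2.83 in the mutant lists (exact p = 0.00649, adjusted p = 0.262). Blm averaged 5.00 and 3.00 (exact p = 0.00649), and Rev3l 4.83 and 0.667 (exact p = 0.00866), none of which passed the adjustment. Of 119 regions tested by Fisher's exact test, 0 passed, beside 0% of 22615. At an unadjusted p under 0.05, 7 regions (5.88%) were called less often in the mutants, beside 3.84% of all regions, and none more often, beside 0.106%. The Fanci region above gave the smallest p the test allows (exact p = 0.00216, adjusted p = 0.345).

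Pairs of rescue lines differed in few genes. From KO+WT to KO+5RK, Palb2 and Polk were lost, 8% of the 25 genes called in all KO+WT lists, beside 2.8% of all genes so called (1.01% of all genes with a bin in either line). From KO+WT to KO+13RK, Polh was lost, 4% beside 7.19% (2.62% of all genes with a bin in either line). From KO+5RK to KO+13RK, Dclre1a and Ube2t were lost, 4.55% of 44 genes beside 1.37%. None was gained in these pairs, beside 0.487%, 0.345% and 0.401% of all genes in the same order. From WT to KO+WT none was lost, beside 2.8% of all genes with a bin in either line, and none gained, beside 0.503%. With KO+5RK 1 left out the losses from KO+WT to KO+5RK were 4 and those from KO+5RK to KO+13RK 5. Without KO+WT 2, 3 genes were lost from WT to KO+WT, 1 was gained from KO+WT to KO and 2 from KO+WT to KO+5RK. Gains from KO+WT to KO+5RK were 1 without KO+WT 1 and 2 without KO+5RK 1, and 1 gene was gained from KO+5RK to KO+13RK without KO+13RK 2. With KO+13RK 1, 2 or 3 left out, the losses from KO+WT to KO+13RK were 2, 3 and 5. Losses and gains over all genes were not counted with a list left out. Lists did not overlap in bins, higher in KO+WT, for Palb2 and Polk against KO+5RK (4.65% beside 3.5% of all genes), and none was higher in KO+5RK, beside 0.829%. Against KO+13RK they did not overlap for Blm, Brca1, Fanca and Polh (9.76% beside 6.89%), and none was higher in KO+13RK, beside 0.609%. KO+5RK was above KO+13RK without overlap for Dclre1a and Ube2t (4.55% beside 2.55%), and the reverse held for none, beside 0.784%. WT was above KO+WT without overlap for Brca1, Wdr48 and Xrcc2 (7.14% beside 9.78%), and KO+WT above WT for none, beside 0.887%.

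Bins of crosslink repair genes lay away from gene ends more often than those of all genes. Within 2000 nt of the RefSeq gene end were 16.1% ± 1.67 (SD, n = 3) of their WT bins, beside 34.1% ± 0.445 for all genes, and 4.36% ± 4.56 of their KO bins, beside 16.9% ± 1.47. Within 500 nt of the gene start were 3.19% ± 0.857 of their WT bins (4.70% for all genes) and 10.1% ± 8.56 of their KO bins (17.2%). These distances run over the gene with its introns, whose median span was 27014.5 nt for the 44 genes and 20987 nt for 12216 genes with a span. Several genes had all their regions in a short stretch. Those of Brip1 lay within 600 nt of a gene of 143080 nt, those of Polh within 600 nt, those of Wdr48 within 1300 nt and those of Polq within 2800 nt. Those of Brca2, by contrast, were spread over 41300 nt. Of all WT bins of these genes, 193 of 343 (56.3%) adjoined another bin in the same list and gene, and of the KO bins 2 of 64 (3.13%). For all genes the mean share per list was 55.9% ± 2.00 in WT and 25.5% ± 1.62 in KO. In the rescue lines the share was 47.2% for KO+WT, 37.6% for KO+5RK and 43.0% for KO+13RK. KO bins of these genes mostly stood alone, with a mean rank at the 61.8 ± 1.39 percentile of their lists, beside 54.2 ± 4.35 in WT.

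A list of 52 other genes, drawn up as genes of the same repair and fork protection pathways, was followed in the same way. A symbol matched for 51 of them, and each of these had a bin. Over the 5 lines 5 of the 51 passed the permutation F test (adjusted p under 0.05), namely Atm, Exo1, Mcm8, Rad51b and Rtel1, beside 4.82% of all genes. By the same test 0 passed at equal list length, with enrichment values at or above the median, or with calls in place of bins. Exo1, a resection nuclease, had 3 bins in each WT list, none in KO, and 1 to 4 in every other list (adjusted p = 0.0294, permutation F test). Mcm8, a helicase subunit, had 6, 7 and 6 bins in WT and none in KO (adjusted p = 0.0233, permutation F test). Rad51b, a recombination factor, departed from this with 3, 3 and 2 bins in WT, 4, 2 and 3 in KO, 3 in each KO+WT list, and 0 or 1 in every mutant list (adjusted p = 0.0458, permutation F test). Rtel1, a helicase, had no bin in any KO+5RK list and 1 to 5 in every other list (adjusted p = 0.0486, permutation F test). Atm, the kinase of double-strand breaks, had 5, 6 and 5 bins in WT, 1, 1 and 2 in KO, and 2 to 4 in every rescue list (adjusted p = 0.0318, permutation F test). The count of 5 fell to 0 without KO 1 or KO 3, to 1 without KO 2, WT 1, WT 2 or WT 3, to 2 without any KO+13RK list, and to 3 without KO+WT 1, KO+WT 2 or KO+5RK 2. Among their 142 regions called in at least 3 lists, 1 each in Atm, Exo1 and Rpa2 was called less often in KO, beside 4.76% of all regions. In Bach1 and Pold3, 1 each was called more often, beside 1.05% of all regions. The mouse symbol Bach1 is that of a transcription factor and not of the helicase Brip1, so its place in this list is doubtful. Counts this small were not read as a result about these genes. From WT to KO, 11 of these genes were lost and none gained, beside 15.2% lost and 0.803% gained of the 11712 genes with a bin in either line. Recovery of their 53 regions absent from KO was 58.5% ± 4.99 in KO+WT, with 49.7% ± 5.76 for KO+5RK and 34.6% ± 7.86 for KO+13RK.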

How the data were processed

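m6A was measured by immunoprecipitation of fragmented mRNA with a polyclonal anti-m6A antibody and stranded sequencing, per the labels' protocols. There were 30 libraries, and the 15 immunoprecipitated samples have peak lists. STAR 2.5.3a, kallisto 0.43.0 and GRCm38 are named in the submitters' processing notes without their roles, and the names of the deposited peak lists point to CLAM as the peak caller. The deposited lists hold, for each bin of 100 nt, an enrichment score by the authors (0.31 to 5.82, scale not given) and the authors' p-value and q-value, all q under 0.05. The lists give no read depth, so precision is limited by the number of lists.

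Bins were counted per Ensembl gene and list. Bins of a gene overlapping by at least 1 nt on 1 strand were merged into regions. Bins per gene were compared by a permutation F test (100000 resamples) or exact permutation tests, and regions called in at least 3 lists by Fisher's exact test, all two-sided apart from F, with Benjamini-Hochberg adjustment over all genes or regions and a threshold of 0.05. The code was tested on simulated data. Python 3.11.15, numpy 2.4.6, pandas 2.3.3, scipy 1.17.1 and matplotlib 3.10.9 were used. Values in every list are given for genes called by a test, lost or gained between lines, or among the 5 with the most bins in WT, and for some others to complete a role. The rest are given by range, and genes outside the set were named when called by a test. The alternatives were a q under 0.005, enrichment at or above the median, equal list length, calls in place of bins, a replicate block, calls in at least 2 of 3 lists, unmerged bins, other distance windows, and leaving out each list. The members and lists were chosen with earlier results of these data known. A result for 1 other pathway gene is not reported here.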

Additional observations from a re-analysis of the deposited data

How the results depend on the processing

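Of 685 counts and percentages under the alternatives, 578 stayed within 1.5 times or 1 SD, but most of the 685 came from leaving out 1 list. At equal list length 11 of 36 stayed, with enrichment at or above the median 22 of 36, and with a q under 0.005 24 of 36. The order of WT and KO+WT turned at equal list length, and that of KO+WT and KO+5RK in recovery at the higher enrichment values. The order of KO+5RK and KO+13RK in recovery also turned at equal list length, with 50.0% and 56.7%. Genes with a bin in KO+5RK were then 105% of KO+WT. What follows concerns crosslink repair genes unless stated. Losses and gains over all genes were counted only with a q under 0.005 and at equal list length, and their shares were not computed. Genes with a bin were not counted over all genes under the alternatives. These counts are therefore not read as a result about the crosslink repair genes. With a q under 0.005, bins in KO were 7.06% of WT. Genes with a bin were 14.5% of WT in KO and 72.4% in KO+WT. Over the lines 2 genes passed, regions called less often in KO numbered 3, and more often 0. Lost genes numbered 2 from WT to KO+WT (383 over all genes), 3 from KO+WT to KO+13RK (262) and 0 from KO+5RK to KO+13RK (96). There were 23 regions absent from KO and 0 kept, with 62.3% recovery in KO+WT. With enrichment at or above the median of 1.36, genes with a bin in KO+WT were 79.3% of WT. Then 0 genes passed over the lines, 0 of the other pathway genes, and 0 regions in either direction. Lost genes numbered 1 from WT to KO+WT, 2 from KO+WT to KO+13RK and 1 from KO+5RK to KO+13RK. There were 18 regions absent from KO and 0 kept, with recovery of 42.6% in KO+WT, 44.4% for KO+5RK and 22.2% for KO+13RK, and 11.1% of WT bins lay near the gene end.

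At equal list length, bins in KO were 64.3% of WT and in KO+WT 121% of WT, while KO+5RK had 100.0% and KO+13RK 92.2% of KO+WT. Genes with a bin were 72.0% of WT in KO, 114.0% in KO+WT, and 96.5% of KO+WT in KO+13RK. Over the lines 0 genes passed in either gene list, and 1 region was called less often in KO, 2 more often. From WT to KO 4 genes were lost and 2 gained (584 and 504 over all genes), and from KO+WT to KO 4 and 1 (500 and 324). From WT to KO+WT 1 was lost and 1 gained (84 and 116 over all genes). From KO+WT to KO+13RK 2 were lost (97) and from KO+5RK to KO+13RK 0 (57). There were 10 regions absent from KO and 0 kept, with recovery of 60.0% in KO+WT and 56.7% in KO+13RK, and 1.33% of WT bins lay near the start and 10.9% near the end. With calls in place of bins, 0 genes passed in either gene list. With calls in 2 of 3 lists, 2 genes were gained from KO+WT to KO+5RK, and 5 were lost and 1 gained from KO+5RK to KO+13RK. Regions absent from KO were then 84, with recovery of 56.7%, 40.9% and 32.9%. With windows of 200 and 1000 nt, 8.75% of WT bins lay near the end. The causes of these shifts were not tested.

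With a replicate block 0 genes passed in either gene list. Deviations from line means correlated at -0.0365 to 0.0159 for same-numbered lists and -0.0234 to 0.0325 for others. Such values do not settle whether same-numbered lists shared a processing step, so the result with the replicate block stands as a limit.

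Leaving out each list in turn, bins ranged over 17.1% to 20.6% of WT in KO, 66.5% to 76.1% of WT in KO+WT, and relative to KO+WT over 73.2% to 85.1% for KO+5RK and 44.5% to 61.0% for KO+13RK. Genes with a bin ranged over 36.4% to 45.1%, 85.9% to 90.5%, 90.7% to 101% and 69.2% to 77.5% in the same order. Genes passing over the lines numbered 1 to 3, other pathway genes 0 to 6, and those of both two-group tests 0 throughout. Regions called less often in KO numbered 0 to 11, more often 0 to 2 (0 with a KO list left out, where no region can pass), and those differing in the mutants 0. Lost genes numbered 9 to 12 from WT to KO, 8 to 12 from KO+WT to KO, 0 to 3 from WT to KO+WT, 2 to 4 from KO+WT to KO+5RK, 1 to 5 from KO+WT to KO+13RK and 2 to 5 from KO+5RK to KO+13RK. Gains were 0 to 1 from KO+WT to KO, 0 to 2 from KO+WT to KO+5RK, 0 to 1 from KO+5RK to KO+13RK and 0 in the other pairs. Regions absent from KO numbered 47 to 61 and kept 2 to 3. Recovery was 63.9% to 78.7% in KO+WT, 44.3% to 53.2% in KO+5RK and 39.2% to 48.9% in KO+13RK. Near the start lay 2.69% to 3.49% of WT bins and 5.21% to 12.9% of KO bins, and near the end 15.5% to 17.0% and 2.0% to 6.55%.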
